A study of Mus musculus with 60 samples.

Results

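The genes described here encode neuropeptide precursors, secretory granule proteins and peptide receptors of the mouse brain. Their messenger RNA was followed in cells sorted as neurons from 2 forebrain regions, the nucleus accumbens (NAc) and, in front of it, the medial prefrontal cortex (mPFC). The members were taken by name: the tachykinin precursors Tac1 and Tac2 with the receptor Tacr1, the CART precursor Cartpt, the neurotensin precursor Nts with the receptors Ntsr1 and Ntsr2, the PACAP precursor Adcyap1, and the granins Scg2 and Vgf. They are 10 of the 35889 genes counted, all 10 passed the filter on low counts in every comparison, and none had a count of 0 in any library.

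All mice were Ai14:cFos-TRAP2 animals (genotype label Ai14xFosiCre), in which a tamoxifen-inducible Cre recombinase made from the Fos locus switches on the red fluorescent protein tdTomato. Mice aged 8 to 16 weeks learned to self-administer cocaine and sucrose, and after extinction they underwent a cue session for each reward. 4-hydroxytamoxifen given after the cocaine session tagged the cocaine-seeking ensemble (C) with tdTomato, and cFos protein stained 60 min after the later sucrose session marked the sucrose-seeking ensemble (S). Cells with both labels were the overlapping ensemble (O), and cells with neither were the non-ensemble population (NE). Each library came from NeuN-positive (neuronal) cells sorted from the pooled tissue of 3 mice, and the same 3 female and 3 male pools gave every population in both regions. The design therefore held 48 libraries in 16 groups of 3, and each comparison between populations within a region set 6 libraries against 6. A further 12 libraries, 3 for each sex and region, were labelled naive. What naive means is not stated, their treatment label (dual cocaine and sucrose self-administration) is that of all other libraries, and they were compared with the non-ensemble population only. The order of the 2 tags was the same in all mice, so the reward, the time since the session and the kind of label (a genetic tag or an antibody stain) cannot be told apart in any comparison of C with S.

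Neuropeptides are cut from larger precursors inside dense-core vesicles and released on strong or sustained firing. Granins such as secretogranin II (Scg2) and VGF are the bulk cargo of these vesicles and are themselves cut into peptides. In the striatum, substance P (from Tac1) is a classical product of the medium spiny neurons of the direct pathway, the CART and neurotensin precursors are made by subsets of accumbens neurons, and the receptors act through G proteins on neurons and, for Ntsr2, largely on astrocytes. Scg2, Vgf and Nts are long known as genes whose transcription follows neuronal activity through cAMP-response elements.

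The 48 libraries held 9933361 to 24500899 estimated counts in total (median 13723715.5), and the naive libraries 29238727 to 45299753. Levels of genes are given in CPM, a gene's counts relative to the total of its library after TMM scaling. CPM of single transcripts were not TMM-scaled, whereas the edgeR fits of transcripts were. Some libraries went against their labels. Slc17a7, the vesicular glutamate transporter of cortical neurons, stood at 275 to 694 CPM in the mPFC libraries of male pools 1 and 3. It stood at 17.9 to 82.3 CPM in the mPFC libraries of the other 4 pools, below the NAc libraries (129 to 632 CPM). This marker was thus low in 16 of the 24 libraries labelled mPFC, and the main regional and mPFC results are given also for male pools 1 and 3 alone. The Y-linked gene Ddx3y was present at 13.3 to 22.2 CPM in the 8 libraries of female pool 2, against 0.0677 to 2.57 CPM in the other female libraries and 16.8 to 50.2 CPM in the male libraries, so results are also given without that pool where it mattered. Some description fields gave another region or sex than the titles. The codes in the titles were used. The libraries, although from NeuN-positive sorts, also held much RNA of glial markers. Summed astrocyte markers had medians of 4870 and 4740 CPM in the NAc of males and females, and 4380 and 3100 CPM in the mPFC. In the same order the medians were 2320, 2720, 1930 and 1320 CPM for oligodendrocyte markers, and 2780, 3020, 2310 and 1480 CPM for neuron markers. The part of glial RNA in the members' levels was not tested.

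The promoters of 4 of the 5 members that fell in the sucrose-seeking ensemble of the NAc are shown because the genes fell together and because their class is known for cAMP-response elements. Each line gives the 250 bases before the annotated transcription start, 5′ to 3′ on the gene's strand, from RefSeq on GRCm38.p6 (the counts were made on GRCm39, and no coordinates were converted). Capitals mark matches, searched on both strands, to the full cAMP-response element TGACGTCA, to the same element with any base in the place of its G before the last 3 letters (TGACNTCA), to the AP-1 element TGANTCA and to the short element TGACG. The full element is also a match to the element with a free base and to the short element. Scg2 is shown at chr1:79440027-79440276 on the minus strand, Cartpt at chr13:99900684-99900933 on the minus strand, Nts at chr10:102490419-102490668 on the minus strand and Tac1 at chr6:7554811-7555060 on the plus strand.
Scg2: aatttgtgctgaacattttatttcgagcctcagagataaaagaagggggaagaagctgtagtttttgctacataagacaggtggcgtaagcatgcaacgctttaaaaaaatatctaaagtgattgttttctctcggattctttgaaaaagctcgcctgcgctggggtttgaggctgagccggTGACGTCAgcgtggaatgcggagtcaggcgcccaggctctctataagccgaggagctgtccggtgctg
Cartpt: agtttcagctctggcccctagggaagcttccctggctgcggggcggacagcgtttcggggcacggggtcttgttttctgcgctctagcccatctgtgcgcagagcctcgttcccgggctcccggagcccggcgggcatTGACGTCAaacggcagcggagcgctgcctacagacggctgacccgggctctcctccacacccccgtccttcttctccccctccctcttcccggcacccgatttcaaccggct
Nts: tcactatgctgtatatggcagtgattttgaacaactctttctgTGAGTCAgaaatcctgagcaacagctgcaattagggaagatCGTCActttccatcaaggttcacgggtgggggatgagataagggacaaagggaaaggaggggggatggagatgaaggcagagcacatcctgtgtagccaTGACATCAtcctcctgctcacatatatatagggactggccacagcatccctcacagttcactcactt
Tac1: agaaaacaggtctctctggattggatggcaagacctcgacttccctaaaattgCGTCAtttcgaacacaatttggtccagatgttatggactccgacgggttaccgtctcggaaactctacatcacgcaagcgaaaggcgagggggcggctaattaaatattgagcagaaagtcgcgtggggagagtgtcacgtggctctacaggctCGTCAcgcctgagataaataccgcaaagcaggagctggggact

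The full element lay at bases -68 to -61 of Scg2 and at -112 to -105 of Cartpt, counted back from the transcription start, and was held by 1.55% of the 32841 promoter windows of this length. Nts carried the element with an A in the free place, TGACATCA, at -67 to -60, and 7.49% of all windows hold TGACNTCA with any base in the free place. Nts also carried an AP-1 element that begins at -207 (6.75% of all windows). Tac1 carried the short element at -197 to -193 and at -43 to -39, as 17.8% of all windows do at least once. Of the 10 members, all but Vgf had a window. The short element, without the longer ones, also lay before Adcyap1, Ntsr1 (-177 to -173) and Tacr1 (-226 to -222). These genes were not called lower in the sucrose-seeking ensemble, so the short element was not particular to the genes that fell. The windows of Ntsr2 and Tac2 held no match. A match describes letters and says nothing about use of the element in these cells.

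Per unit of transcript length, in TPM (a gene's share of the transcripts of a library, with counts divided by effective length), the granins had the highest levels and Adcyap1 the lowest in both regions. In the NAc, Scg2 (GRCm39 chr1:79412386-79417837) averaged 243 TPM and Vgf (chr5:137055246-137062205) 207 TPM over 24 libraries. Tac1 (chr6:7554120-7565834) averaged 127 TPM, close to Ntsr2 (chr12:16703383-16710243) at 120 TPM. Cartpt (chr13:100034990-100047006) averaged 37.3 TPM, Nts (chr10:102317614-102326396) 23.7 TPM and Tac2 (chr10:127560347-127567638) 14.1 TPM. Tacr1 (chr6:82379278-82537085) averaged 10.8 TPM, Ntsr1 (chr2:180141687-180186773) 9.33 TPM and Adcyap1 (chr17:93506397-93515189) 4.59 TPM. In the mPFC the order was Vgf (246 TPM), Scg2 (143), Ntsr2 (95), Tac1 (46.3), Cartpt (17.6), Ntsr1 (16.2), Nts (8.69), Tacr1 (7.73), Tac2 (7.19) and Adcyap1 (4.98 TPM). The precision differed accordingly. Tac2 rested on 19 to 130 counts per NAc library and 8 to 37 per mPFC library, and Adcyap1 on 11 to 145 and 8 to 112.

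**Figure D1:**
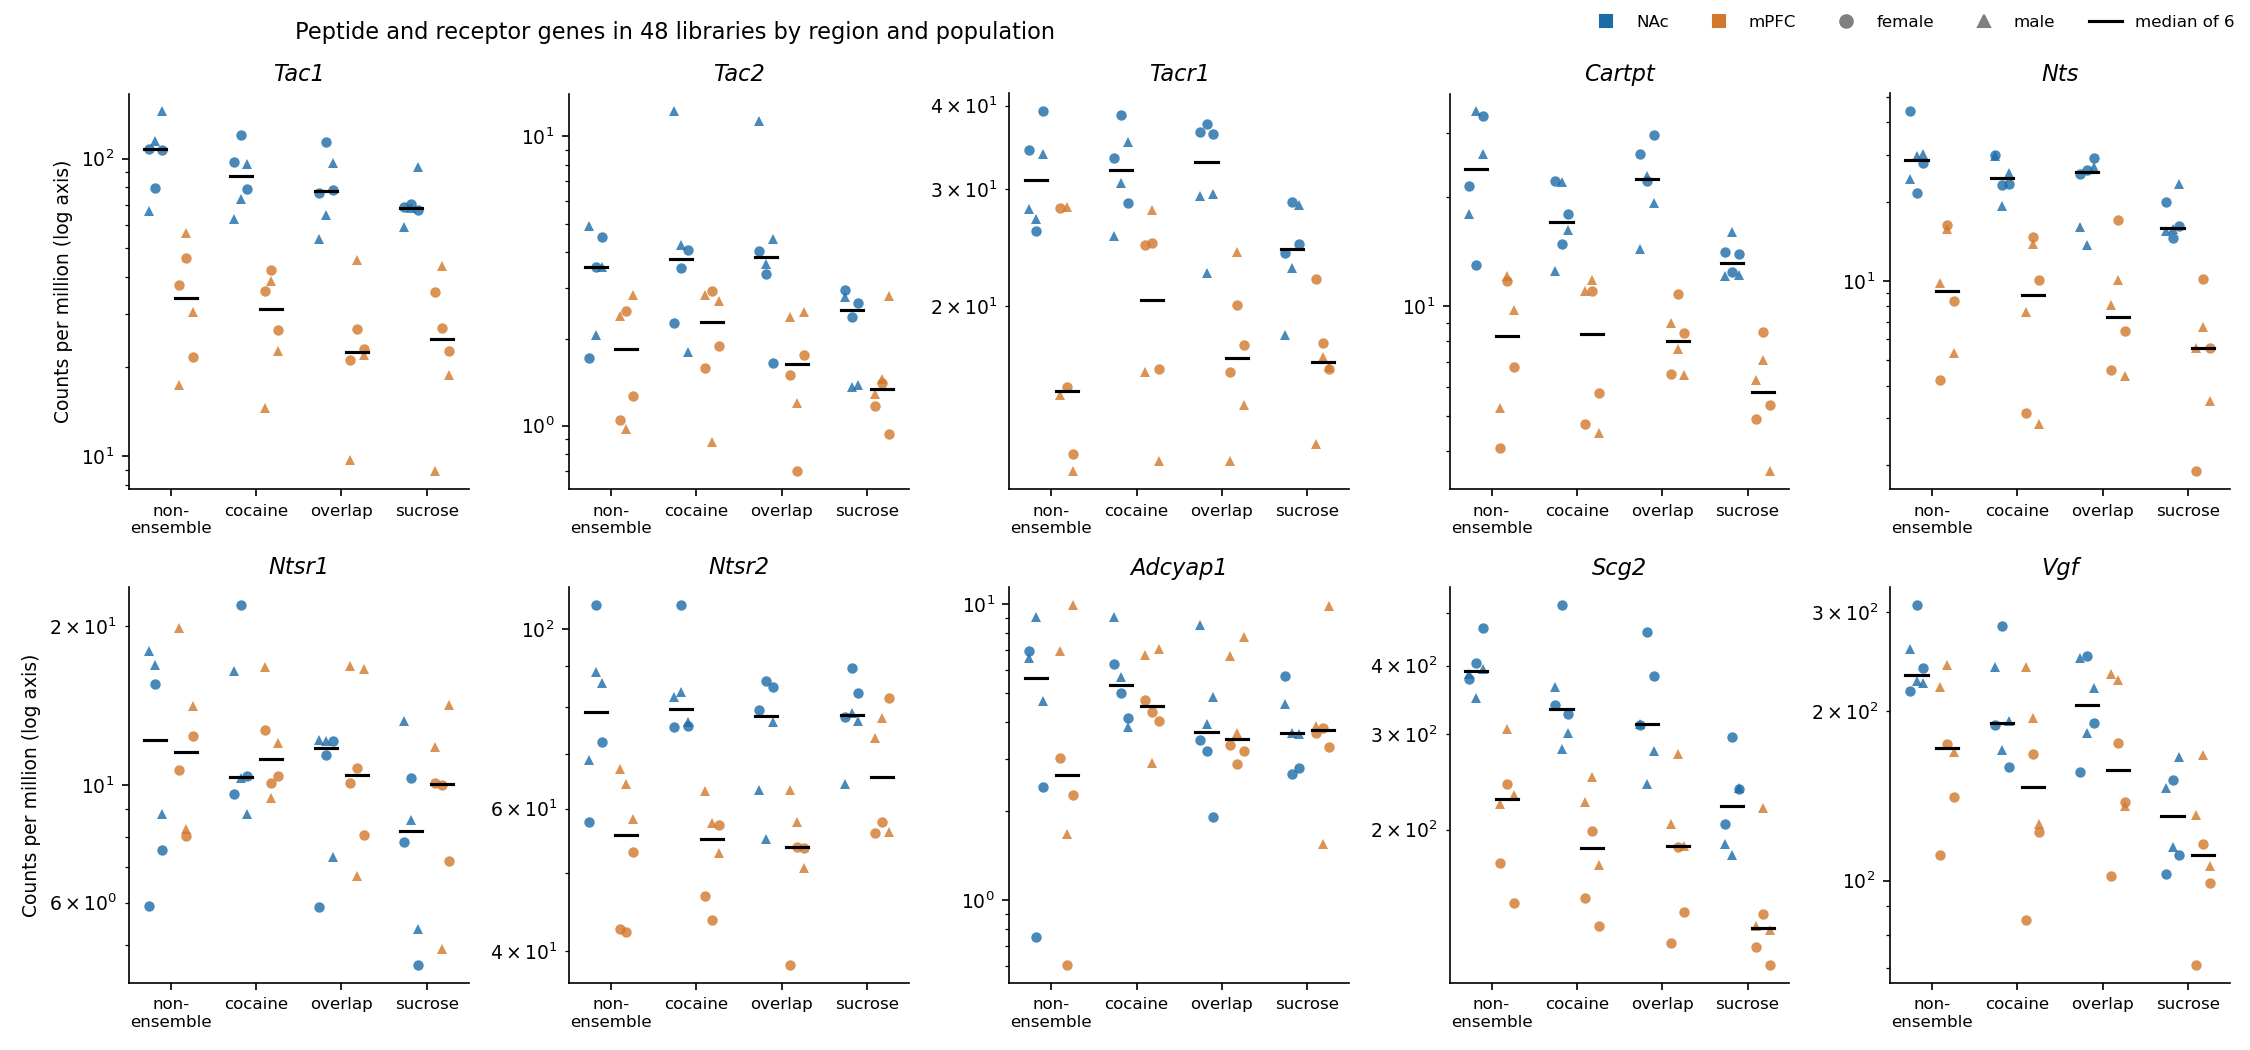
Level of each of the 10 genes in CPM (log axis) in the 48 libraries, by region (NAc blue, mPFC orange) and population, with circles for female and triangles for male pools and a bar at the median of 6 libraries. Scg2 and Vgf were lowest in the sucrose-seeking ensemble (NAc medians 221 and 130 CPM against 390 and 232 CPM in the non-ensemble population).

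Most members were expressed more in the NAc than in the mPFC. Over the 4 populations and both sexes, 8 of 10 were higher in the NAc at an adjusted p under 0.05 (edgeR quasi-likelihood test with Benjamini-Hochberg adjustment over 28118 genes), where 25.4% of all genes tested were called higher. The members' median log2 difference was 0.77, against -0.18 over all genes. Tac1 spanned 53.7 to 144 CPM in the NAc (median 78.6) and 8.9 to 56.3 CPM in the mPFC (median 26.7), a 2.96-fold difference (log2 1.57, SE 0.15, adjusted p = 1.09e-11). Nts spanned 13.7 to 44 CPM (median 23.9) and 1.89 to 17 CPM (median 7.15), a 2.93-fold difference (log2 1.55, SE 0.18, adjusted p = 1.48e-09). Cartpt spanned 12.1 to 34.4 CPM (median 17.9) and 3.51 to 12.1 CPM (median 6.96), a 2.51-fold difference (log2 1.33, SE 0.13, adjusted p = 2.31e-11). The libraries of the 2 regions overlapped a little for Tac1 and Nts and met at 12.1 CPM for Cartpt, and within the same pool and population all 3 genes were higher in the NAc in 24 of 24 pairs.

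Of the other members, the neurokinin B precursor Tac2 (median 3.43 against 1.54 CPM), Scg2 (319 against 180 CPM), the substance P receptor Tacr1 (29 against 16.1 CPM), Ntsr2 (78.3 against 56.7 CPM) and Vgf (192 against 139 CPM) were also higher in the NAc. Their log2 differences were 0.99 (SE 0.20), 0.82 (SE 0.08), 0.72 (SE 0.10), 0.48 (SE 0.07) and 0.37 (SE 0.09) by the edgeR test, with adjusted p of 7.74e-05, 1.03e-11, 2.05e-07, 7.08e-08 and 0.001. Ntsr1 (median 10.3 against 10.5 CPM, log2 difference -0.07, SE 0.14) and Adcyap1 (4.36 against 3.74 CPM, 0.10, SE 0.20) did not pass the test. When counts were scaled for each transcript's effective length in each library, Vgf had no difference (log2 -0.001) and Ntsr1 was lower in the NAc (log2 -0.55, adjusted p = 0.00729). With male pools 1 and 3 alone, the pools with high Slc17a7 in their mPFC libraries, 5 members were higher in the NAc: Tac1 (log2 2.22), Nts (2.03), Cartpt (1.21), Tacr1 (1.06) and Scg2 (0.70). With all 3 male pools 6 were higher, with Tac2 (0.96, adjusted p = 0.0605) and Vgf (0.10, adjusted p = 0.762) lost, and in females alone the count was 8.

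The size of the Tac1 and Nts differences moved with the marker state of the mPFC libraries. In male pools 1 and 3 the median NAc to mPFC ratio was 4.58 for Tac1 and 4.73 for Nts, against 2.77 and 2.32 in the other 4 pools. Tac1 in the mPFC stood at 8.9 to 30.6 CPM in male pools 1 and 3 and at 21 to 56.3 CPM in the others. Cartpt did not move this way (2.83 against 2.87), and Ntsr1 was lower in the NAc in male pools 1 and 3 (median ratio 0.73) and near equal elsewhere (1.04). Whether striatal tissue in the mPFC punches accounts for the smaller ratios was not tested. Ppp1r1b, a marker of medium spiny neurons, stood at 80.3 to 500 CPM in the mPFC of male pools 1 and 3, at 190 to 889 CPM in the other mPFC libraries and at 382 to 1450 CPM in the NAc. The other 4 pools were not alike. Male pool 2 had Ppp1r1b at 576 to 889 CPM in the mPFC and 451 to 976 CPM in the NAc. Female pools had 190 to 615 CPM in the mPFC and 608 to 1370 CPM in the NAc.

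**Figure D2:**
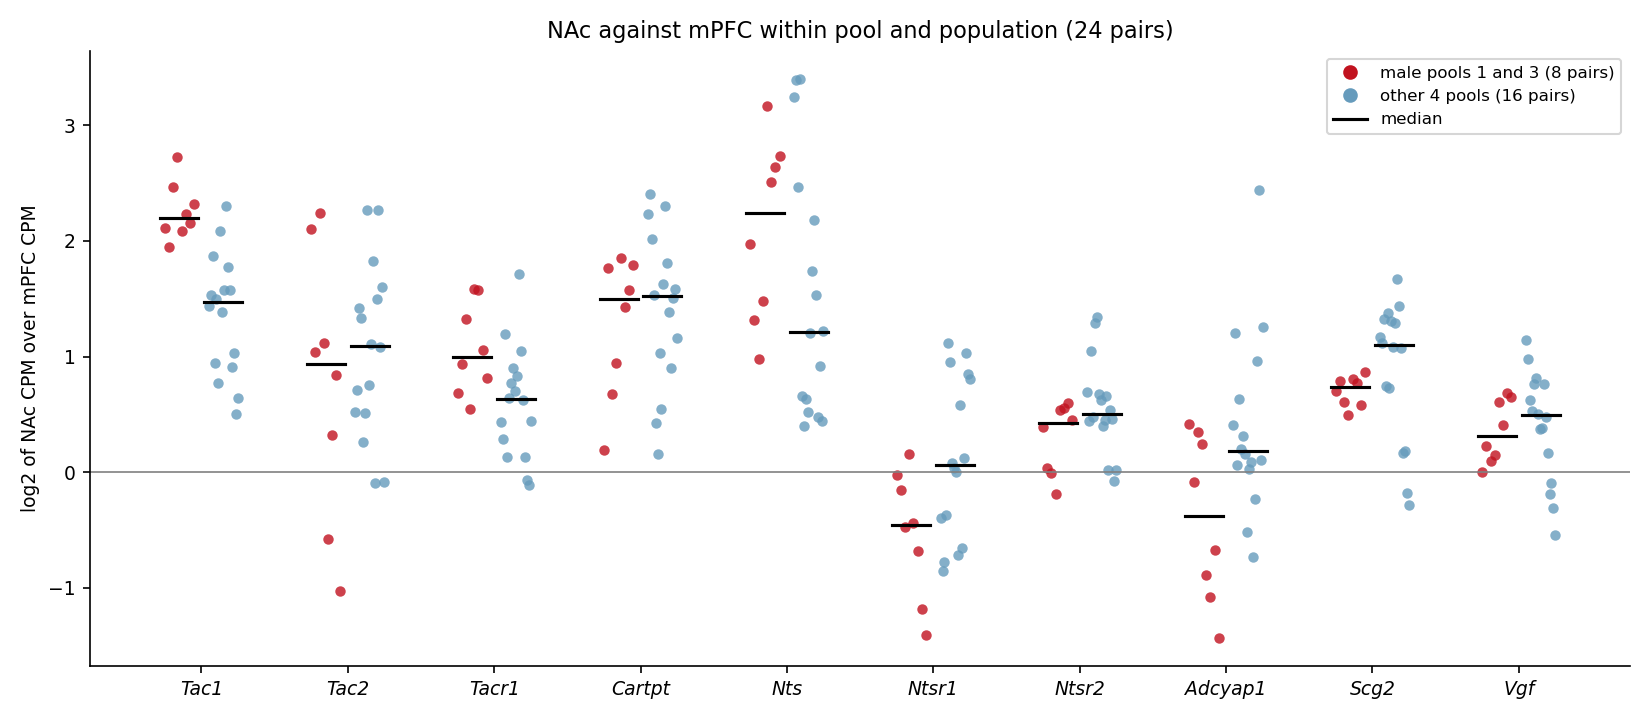
Ratio of NAc to mPFC level (log2 of CPM) for each gene within the same pool and population, with male pools 1 and 3 in red (8 pairs), the other 4 pools in blue (16 pairs) and a bar at each median. Tac1 and Nts had the higher ratios in male pools 1 and 3 (medians 4.58 and 4.73 as plain ratios), and the 2 sets overlapped for every gene.

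The related genes followed the same regional direction in part. All 5 medium spiny neuron markers tested were higher in the NAc (median log2 difference 1.06). Of 13 genes for granule proteins and peptide processing 10 were higher, among them Chgb (0.71), the granule docking factor Cadps (0.65), the inhibitor precursor Pcsk1n (0.61) and the convertase Pcsk2 (0.48). Of 13 other peptide precursors 6 were higher and 1 was lower, led by Npy (1.17), Crh (1.98), Pdyn (1.52) and Penk (1.45). Of 8 other receptors and peptidases 5 were higher and 3 were lower, with Sort1, which binds neurotensin (0.67), the peptidases Mme (1.28) and Ace (0.64) and the receptor Vipr1 (0.56) as the most firmly called.

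In the NAc, the sucrose-seeking ensemble held less granin and less peptide precursor RNA than the non-ensemble population. Tac1, Cartpt, Nts, Scg2 and Vgf fell, 5 of the 10 members, where 17.2% of the 25150 genes tested were called lower. The median log2 change of the members was -0.45 and that of all genes 0.19 (0.07 on length-scaled counts). In bulk libraries, fewer cells of a type and less RNA per cell cannot be told apart.

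Scg2 stood at 349 to 470 CPM in the 6 non-ensemble libraries (median 390, mean 397 ± 40.5 SD) and at 180 to 296 CPM in the 6 sucrose-seeking libraries (median 221, mean 224 ± 43 SD). The ranges did not overlap, and within pools the ratio was 0.487 to 0.733 (lower in 6 of 6 pools). The fitted change was 0.598-fold (log2 -0.74, SE 0.11, edgeR adjusted p = 2.37e-05). Both coding transcripts fell, Scg2-201 by 0.67 (adjusted p = 0.00188) and Scg2-202 by 1.08 on the log2 scale (adjusted p = 0.00821). The call held in females alone (-0.68, adjusted p = 0.0161), in males alone (-0.82, adjusted p = 0.0152), without female pool 2 (-0.79) and on length-scaled counts (-0.94, adjusted p = 0.000303).

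Vgf stood at 217 to 309 CPM in the non-ensemble libraries (median 232, mean 246 ± 34.1 SD) and at 103 to 166 CPM in the sucrose-seeking libraries (median 130, mean 132 ± 25.5 SD). The counts did not overlap and were lower in 6 of 6 pools (ratio 0.467 to 0.738), a 0.568-fold change (log2 -0.82, SE 0.14, edgeR adjusted p = 6.5e-05). Per length the fall was gone. On length-scaled counts the log2 change was -0.006 (adjusted p = 0.991), and the TPM ratio within pools ran from 0.974 to 2.01, with 2 of 6 pools lower. The main transcript, Vgf-204 (2834 bases, 64.1% G and C), went from a mean of 179 to 109 CPM, while its mean TPM went from 137 to 168. The effective length that the authors' quantification gave it, which a bias correction can shorten, had a median of 1741 bases in the non-ensemble and 732 bases in the sucrose-seeking libraries. Every Vgf change below is given on counts and carries this limit.

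Tac1 stood at 66.6 to 144 CPM in the non-ensemble libraries (median 108) and at 58.7 to 93.8 CPM in the sucrose-seeking libraries (median 68.4). The ranges overlapped, but the sucrose-seeking library was the lower one in 6 of 6 pools (ratio 0.592 to 0.889). The change was 0.737-fold (log2 -0.44, SE 0.16, edgeR adjusted p = 0.0321), and -0.89 on length-scaled counts (adjusted p = 0.00183). It is the least firm of the 5. The call was not kept in females alone (-0.43, edgeR adjusted p = 0.0743) or in males alone (-0.47, adjusted p = 0.242). The call was lost when male non-ensemble replicate 3 (-0.31, adjusted p = 0.139), male non-ensemble replicate 2 (-0.38, adjusted p = 0.0876), female non-ensemble replicate 3 (-0.41, adjusted p = 0.063) or female non-ensemble replicate 1 (-0.44, adjusted p = 0.0521) was left out, and likewise without male sucrose-seeking replicate 1 (adjusted p = 0.0514) or female sucrose-seeking replicates 1, 2 and 3 (adjusted p = 0.0532, 0.0657 and 0.0562).

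Nts stood at 21.5 to 44 CPM in the non-ensemble libraries (median 28.9) and at 14.6 to 23.3 CPM in the sucrose-seeking libraries (median 15.9). Only female non-ensemble replicate 2, at 21.5 CPM, lay within the sucrose-seeking range, and 6 of 6 pools were lower (ratio 0.454 to 0.768). The change was 0.633-fold (log2 -0.66, SE 0.17, edgeR adjusted p = 0.00395), and Nts-201, its single annotated transcript, gave -0.72 in the transcript fit (adjusted p = 0.0143). Cartpt stood at 13 to 34.4 CPM (median 23.9) and at 12.1 to 16 CPM (median 13.2). Its sucrose-seeking libraries were close together at 13.4 ± 1.52 CPM (SD, n = 6), whereas the non-ensemble libraries spread over 24.4 ± 8.56 CPM. All 6 pools were lower (ratio 0.417 to 0.953), a 0.591-fold change (log2 -0.76, SE 0.19, edgeR adjusted p = 0.00341). The shorter transcript Cartpt-201 fell by 1.3 on the log2 scale (adjusted p = 0.00971), from a mean of 6.92 to 3.41 CPM. By sex, the Nts call was lost in males alone (-0.55, edgeR adjusted p = 0.165) and the Cartpt call in females alone (-0.66, adjusted p = 0.105).

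**Figure D3:**
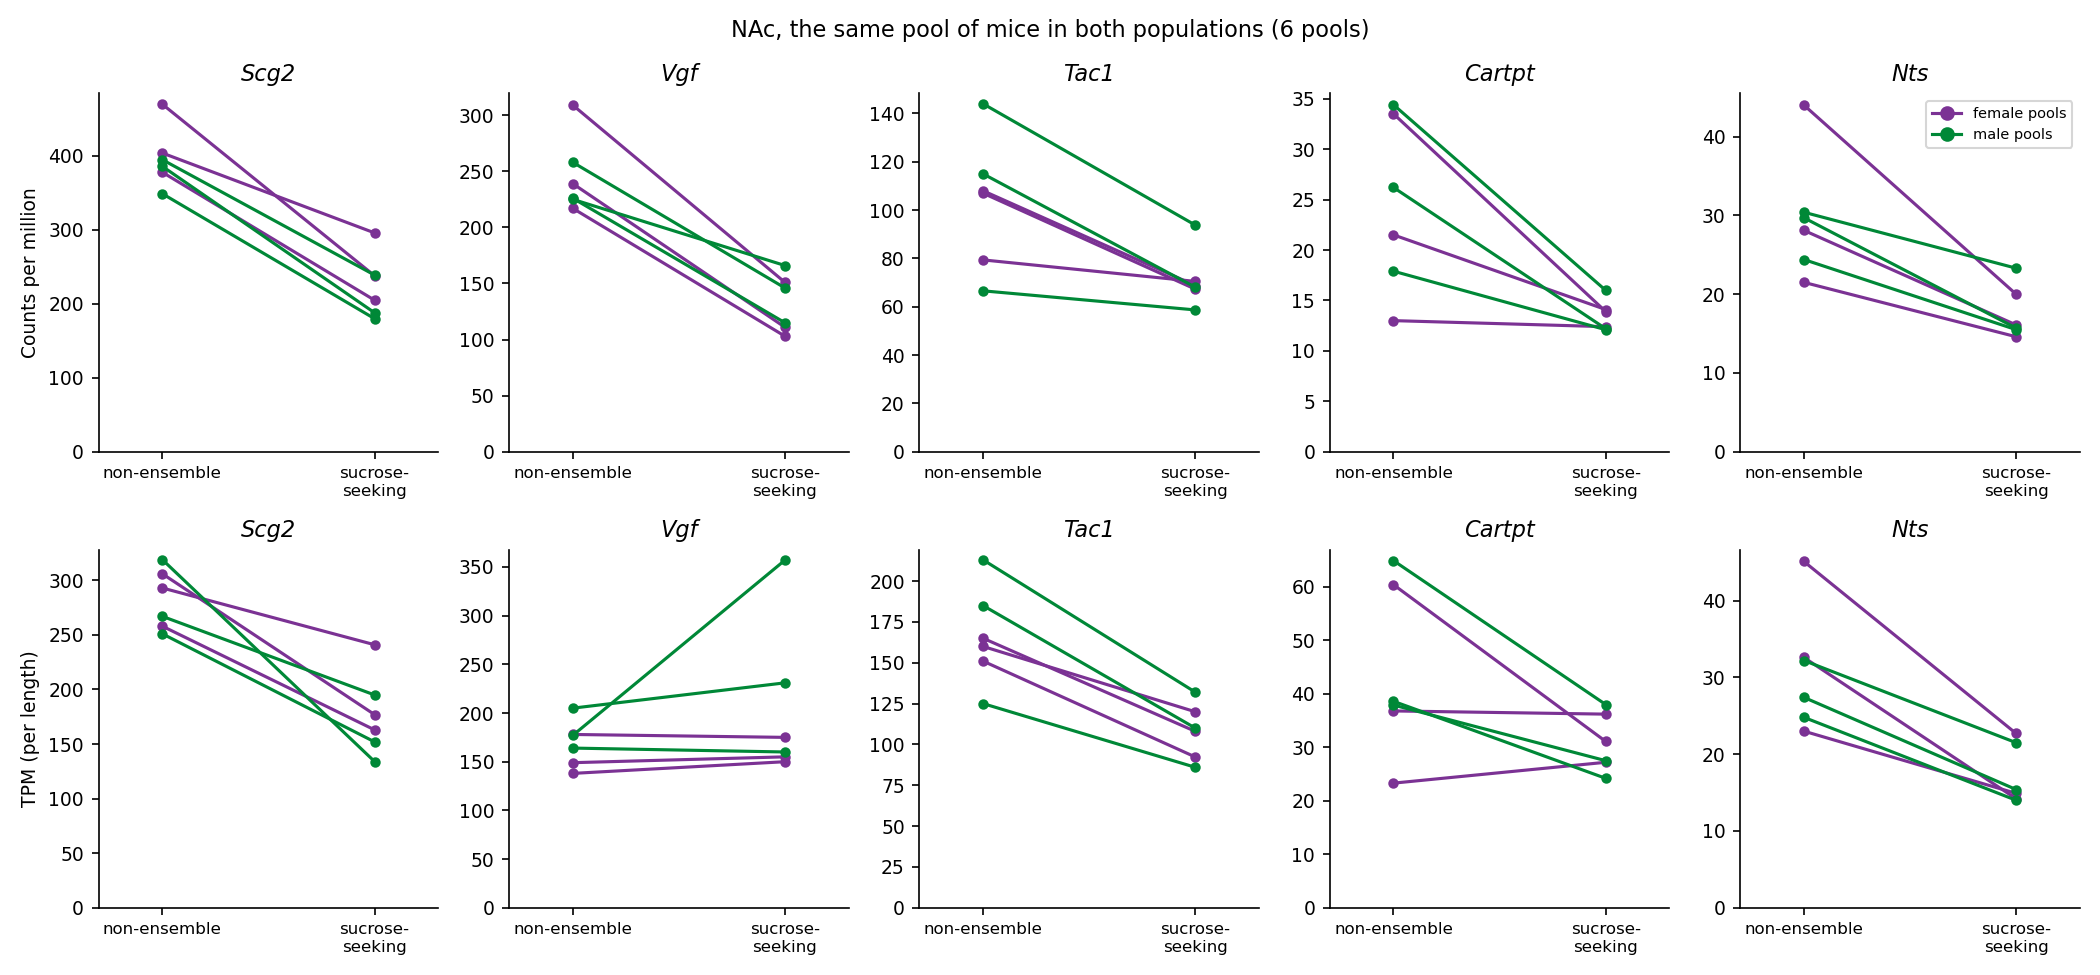
Level of Scg2, Vgf, Tac1, Cartpt and Nts in the NAc, with a line joining the non-ensemble and the sucrose-seeking library of each pool (females purple, males green), in CPM in the upper row and in TPM in the lower row. In CPM all lines fall for all 5 genes, and in TPM all 6 fall for Scg2, Tac1 and Nts, 5 of 6 for Cartpt and 2 of 6 for Vgf.

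The receptors and the scarce precursors did not pass the test in this comparison. Tacr1 went from a median of 31 to 24.4 CPM (log2 -0.27, SE 0.12, adjusted p = 0.0912) and was lower in 5 of 6 pools. Ntsr1 went from 12.2 to 8.21 CPM (-0.45, SE 0.29, adjusted p = 0.255), while its TPM was higher in 6 of 6 pools. Tac2 went from 3.55 to 2.51 CPM (-0.45, SE 0.42, adjusted p = 0.447), and Adcyap1 from 5.63 to 3.66 CPM (-0.21, SE 0.36, adjusted p = 0.693). Ntsr2 was level on the gene sum (79 and 78.3 CPM, log2 0.06, SE 0.12, adjusted p = 0.76). Tac2 had its highest values in the cocaine-seeking and overlapping libraries of male replicate 1, at 12.2 and 11.3 CPM.

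The wider secretory machinery moved in the same direction. Of 13 granule and processing genes 11 fell in the sucrose-seeking ensemble of the NAc (median log2 change -0.59), led by the carboxypeptidase Cpe (-0.80, adjusted p = 1.79e-05), Pcsk1n (-0.99, adjusted p = 2.59e-05), the granin Scg3 (-0.77) and chromogranin A, Chga (-0.69). Of 12 other peptide precursors 4 fell, namely Sst (-0.76), Pdyn (-0.63), Penk (-0.65) and Npy (-0.60). Of 8 other receptors and peptidases 3 fell, namely Sort1 (-0.57), the PACAP receptor Adcyap1r1 (-0.54) and Ace (-0.53).

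Markers of cell identity moved as well. All 5 general neuron markers were lower (median log2 change -0.65), with a summed level of 3540 to 4020 CPM in the non-ensemble and 1960 to 2620 CPM in the sucrose-seeking libraries. All 7 astrocyte markers were lower (5290 to 6850 against 2710 to 4410 CPM) and all 5 endothelial markers were higher (58.5 to 118 against 90.7 to 231 CPM). Of 5 markers each, 3 medium spiny neuron, 1 direct-pathway and 3 indirect-pathway markers were lower, as were 5 of 7 interneuron markers. The members' summed level went from 876 to 1000 CPM down to 510 to 679 CPM. The part of these shifts in the members' changes was not tested. Of 10 activity genes 3 were lower (Nptx2 by -0.70, Arc by -0.66 and Junb by -0.64) and none was higher, although the population was gated on cFos protein.

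**Figure D4:**
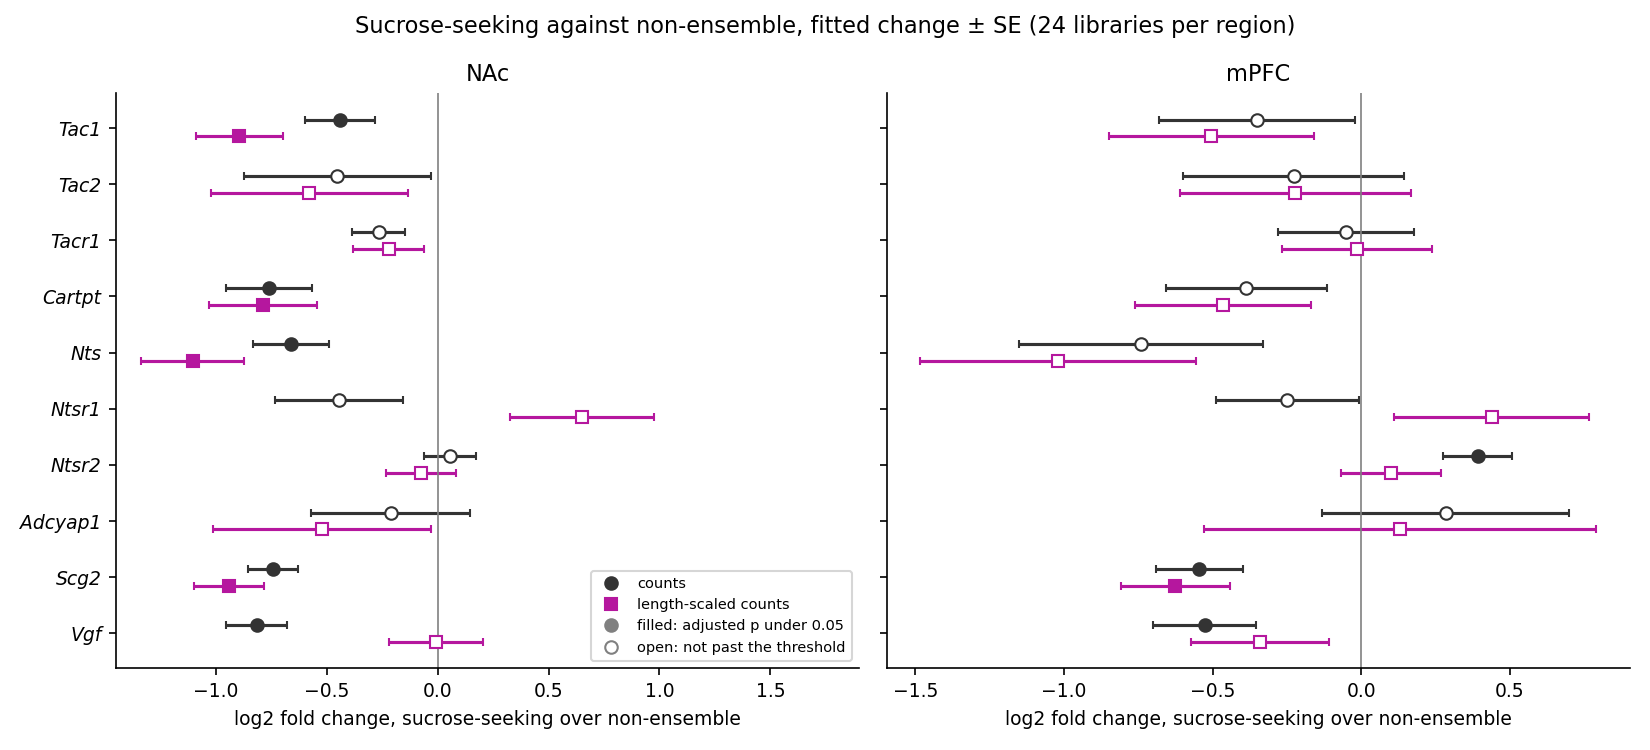
Fitted log2 change from non-ensemble to sucrose-seeking in the NAc and the mPFC, with standard error bars, for counts (black circles) and length-scaled counts (magenta squares), where filled symbols have an adjusted p under 0.05. Scg2 was below 0 and filled on both scales in both regions, and Vgf lay near 0 (log2 -0.006) on length-scaled counts in the NAc.

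In the mPFC, the granins fell and Ntsr2 rose in the sucrose-seeking ensemble. These are 2 of 10 members lower and 1 higher, where 15.3% of 26861 genes were called in either direction (2214 lower and 1907 higher). Scg2 stood at 147 to 306 CPM in the non-ensemble (median 228) and at 113 to 219 CPM in the sucrose-seeking libraries (median 132), lower in 6 of 6 pools by a ratio of 0.562 to 0.767 (log2 -0.55, SE 0.15, edgeR adjusted p = 0.012). Vgf stood at 111 to 242 CPM (median 172) and 70.9 to 167 CPM (median 111), lower in 6 of 6 pools (log2 -0.53, SE 0.17, edgeR adjusted p = 0.0368), and -0.34 on length-scaled counts (adjusted p = 0.449). The libraries of both granins overlapped between the populations, although the sucrose-seeking library was the lower one in every pool. The Vgf call was lost in 6 of the fits that left out 1 library, those without female non-ensemble replicate 2 (-0.46, adjusted p = 0.103), male sucrose-seeking replicate 3 (-0.47, adjusted p = 0.0965), female sucrose-seeking replicate 1 (-0.48, adjusted p = 0.0806), male non-ensemble replicate 1 (adjusted p = 0.0674), male non-ensemble replicate 2 (adjusted p = 0.0604) or male sucrose-seeking replicate 1 (adjusted p = 0.0538). With male pools 1 and 3 alone no member passed the test (Scg2 -0.72, adjusted p = 0.253), in a fit that called 4 genes in all.

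Nts and Tac1 gave like changes in the mPFC with a wider spread. Nts went from a median of 9.11 to 5.56 CPM (log2 -0.74, SE 0.41, adjusted p = 0.244) and was lower in 6 of 6 pools by a ratio of 0.427 to 0.661. Tac1 went from 34.1 to 24.8 CPM (-0.35, adjusted p = 0.539) and was lower in 5 of 6 pools. With the pool as a block, which compares libraries of the same mice, both fell (Nts -0.76, SE 0.18, adjusted p = 0.00135, and Tac1 -0.39, SE 0.12, adjusted p = 0.0184), in a fit that called 26.7% of genes in either direction (3913 lower). Cartpt (8.27 to 5.8 CPM, -0.39, adjusted p = 0.384), Ntsr1 (-0.25, adjusted p = 0.555), Tac2 (-0.23, adjusted p = 0.75), Adcyap1 (0.28, adjusted p = 0.716) and Tacr1 (-0.05, adjusted p = 0.915) did not pass the test. Of the granule and processing genes 5 of 13 fell, among them Pcsk1n (-0.79), Cpe (-0.64), Chgb (-0.58) and Pcsk2 (-0.28), and of the other precursors 2 of 13, Npy (-0.90) and Sst (-0.60). Sort1 (-0.35) and Ace (-0.58) fell among the 8 receptors and peptidases. All 5 neuron markers were again lower (median -0.65), as were 3 of 7 astrocyte markers, and 4 of 5 endothelial markers were higher. Among 10 activity genes Npas4 rose (0.74) and Egr1 (-0.76) and Junb (-0.54) fell.

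The difference between the regions in this change was itself tested. No member and 0% of all genes passed (edgeR, 1340 of 28118 genes and 0 members at an unadjusted p under 0.05, with 0 members and 11 genes called by DESeq2). The same holds for the difference between the sexes, with 0 members and 0% of genes in the NAc (714 genes at an unadjusted p under 0.05, 4 called by DESeq2) and 0 members and 0% of genes in the mPFC (1088 genes at an unadjusted p under 0.05, 10 called by DESeq2). A call in 1 region or sex and not in the other is therefore no measured difference between them.

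Ntsr2 was the only member called higher in the sucrose-seeking ensemble, and the transcript of it that rose was one that keeps an intron. On the gene sum in the mPFC it stood at 42.3 to 67.2 CPM in the non-ensemble (median 55.6) and at 56 to 82.2 CPM in the sucrose-seeking libraries (median 65.6), higher in 5 of 6 pools (log2 0.39, SE 0.12, edgeR adjusted p = 0.0224). It was 0.10 on length-scaled counts (adjusted p = 0.809). The call was lost without female pool 2 (0.33, adjusted p = 0.107) and in 7 fits that left out 1 library: without female non-ensemble replicate 1 (adjusted p = 0.0641) or 2 (0.0717), female sucrose-seeking replicate 2 (0.0789) or 3 (log2 0.27, 0.11), male non-ensemble replicate 2 (0.0523), or male sucrose-seeking replicate 1 (0.0616) or 2 (0.0751). Transcripts were fitted separately in a step chosen after the gene values had been seen. Without TMM scaling, the retained-intron transcript Ntsr2-205 (2757 bases) rose from 17.1 to 24.1 CPM in the non-ensemble to 36.9 to 69 CPM in the sucrose-seeking libraries of the mPFC (fitted log2 1.02, SE 0.16, edgeR adjusted p = 0.000773). In the NAc it rose from 14.6 to 25.9 CPM to 28.3 to 63.9 CPM (fitted log2 0.94, SE 0.20, adjusted p = 0.0031). These unscaled ranges did not overlap. TMM factors in the NAc were 0.782 to 0.901 in the non-ensemble and 0.927 to 1.093 in the sucrose-seeking libraries. Unscaled levels therefore overstate a rise and understate a fall there, and scaled ranges may overlap. It was higher in 6 of 6 pools in each region.

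On counts, the coding transcript Ntsr2-201 (1524 bases) fell in the NAc, from a mean of 38.5 to 30.6 CPM without TMM scaling (fitted log2 -0.61, SE 0.16, edgeR adjusted p = 0.0139). These unscaled levels were lower in 4 of 6 pools, and pools were not compared after scaling. Per length no fall was clear, as it spanned 41.2 to 110 TPM in the non-ensemble and 45 to 102 TPM in the sucrose-seeking libraries. It went from 41.2 to 69.7 TPM in female pool 2 and from 110 to 45 TPM in male pool 2. In the mPFC it went from 27.7 to 25.8 CPM (-0.33, adjusted p = 0.414). On counts, the level gene sum of the NAc thus combined a rise and a fall. Ntsr2-205 held a median of 31.4% of the gene's counts in the non-ensemble, 35.0% in the cocaine-seeking, 38.7% in the overlapping and 63.0% in the sucrose-seeking libraries of the NAc. In the mPFC the medians were 37.7%, 49.9%, 45.8% and 63.8%. The retained-intron transcript of the substance P receptor, Tacr1-203, went the same way at a low level, from 2.93% to 8.18% of Tacr1 counts in the NAc and from 4.20% to 12.5% in the mPFC (medians, non-ensemble and sucrose-seeking).

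This pattern was general to the libraries. Retained-intron transcripts took 5.11 to 6.79% of all counts in the non-ensemble and 8.98 to 10.9% in the sucrose-seeking libraries of the NAc, and 5.89 to 9.51% and 9.35 to 12.9% in the mPFC, higher in 6 of 6 pools in each region. Of 15556 retained-intron transcripts tested in the NAc 12.9% were called higher (median log2 change 0.72), and of 36334 protein-coding transcripts 12.2% were called lower (median -0.13). In the mPFC these shares were 7.85% higher (median 0.49) and 7.02% lower (median -0.14). The part of this library-wide shift in the Ntsr2 change was not tested.

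The cocaine-seeking ensemble gave no call against the non-ensemble population in these genes. In the NAc 0 of 10 members passed (edgeR, and 0 of the 4 to which DESeq2 gave an adjusted p), where 0.322% of genes were called, and 1 member, Cartpt, had an unadjusted p under 0.05 (log2 -0.42, SE 0.19, edgeR adjusted p = 0.254). Scg2 spanned 281 to 517 CPM (median 332) and Vgf 159 to 284 CPM (median 191). The 95% interval of the change was -0.35 to 0.09 for Scg2 and -0.49 to 0.05 for Vgf on the log2 scale, which leaves out the sizes fitted for the sucrose-seeking ensemble (-0.74 and -0.82). It was -0.50 to 0.12 for Tac1 and -0.80 to -0.04 for Cartpt, and these intervals hold the sizes fitted there (-0.44 and -0.76). Nts (-0.52 to 0.15), Tacr1 (-0.16 to 0.31), Ntsr2 (-0.13 to 0.33), Ntsr1 (-0.42 to 0.71), Tac2 (-0.37 to 1.27) and Adcyap1 (-0.43 to 0.98) had intervals on both sides of 0. In the mPFC 0 of 10 passed by edgeR and 0 of 6 by DESeq2, with 0 at an unadjusted p under 0.05, where 0.302% of genes were called. The fitted log2 changes there ran from -0.19 (Scg2, SE 0.15) and -0.18 (Tac1, SE 0.33) to 0.27 (Tac2, SE 0.37) and 0.47 (Adcyap1, SE 0.42), with Nts at -0.15, Vgf at -0.14, Ntsr1 at 0.01, Cartpt at 0.01, Ntsr2 at 0.03 and Tacr1 at 0.18. With the pool as a block, which called 11.2% of genes in the NAc, Vgf was lower in the cocaine-seeking ensemble of the NAc (log2 -0.23, SE 0.07, adjusted p = 0.0434). In the mPFC the fit with this block called 0 of 10 members and 4423 of 26861 genes.

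For the overlapping ensemble against the same non-ensemble libraries, 0 of 10 members passed in either region (edgeR, none at an unadjusted p under 0.05, and 0 by DESeq2), where 4.89% of genes were called in the NAc and 1.3% in the mPFC. In the NAc the fitted log2 changes were -0.32 for Nts, -0.30 for Tac1, -0.22 for Scg2, -0.19 for Vgf and for Ntsr1, -0.17 for Adcyap1, -0.06 for Cartpt and for Ntsr2, 0.08 for Tacr1 and 0.48 for Tac2 (SE 0.11 to 0.42). In the mPFC they were -0.44 for Tac1, -0.20 for Scg2, -0.19 for Nts and 0.29 for Adcyap1, and the other 6 lay between -0.10 (Tac2) and 0.04 (Cartpt). With the pool block, which called 18.2% of genes in the NAc and 15% in the mPFC, Tac1 was lower in the NAc (-0.30, adjusted p = 0.0383) and in the mPFC (-0.47, adjusted p = 0.00957). Scg2 was lower by the same fit in both (-0.23, adjusted p = 0.0261, and -0.20, adjusted p = 0.0446). Of 5 microglial markers 5 were higher in the overlapping ensemble of the NAc and 4 in that of the mPFC, and 3 and 4 were higher in the cocaine-seeking ensemble. The part of that in the members' values was not tested.

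Against the sucrose-seeking ensemble, both other ensembles held more granin RNA in the NAc. In the cocaine-seeking ensemble Scg2 (log2 0.61, SE 0.11, edgeR adjusted p = 0.00391) and Vgf (0.59, SE 0.14, adjusted p = 0.0114) were higher, 2 of 10 members where 7.52% of genes were called. In the overlapping ensemble Scg2 (0.52, SE 0.11, adjusted p = 0.014), Vgf (0.62, SE 0.14, adjusted p = 0.0154) and Cartpt (0.70, SE 0.20, adjusted p = 0.0457) were higher, where 3.02% of genes were called. These comparisons share their sucrose-seeking libraries with each other and with the comparison above. On length-scaled counts none of the 5 calls was kept (for cocaine-seeking, Scg2 0.69, adjusted p = 0.0811, and Vgf 0.19, adjusted p = 0.805). With the pool block, which called 16.9% of genes for the cocaine-seeking ensemble, Nts (0.48, adjusted p = 0.0173), Ntsr1 (0.59, adjusted p = 0.0373) and Tacr1 (0.34, adjusted p = 0.0286) were higher there too.

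Single libraries decided some of these calls. For the cocaine-seeking ensemble, Vgf was lost without male cocaine-seeking replicate 1 (0.52, adjusted p = 0.0563) or female cocaine-seeking replicate 2 (0.46, adjusted p = 0.0646). For the overlapping ensemble, Scg2 was lost without male sucrose-seeking replicate 2 (adjusted p = 0.0503), female sucrose-seeking replicate 1 (0.0513), female overlapping replicate 2 (log2 0.42, 0.0783) or female overlapping replicate 3 (0.0645). Vgf was lost there without male sucrose-seeking replicate 2 (adjusted p = 0.0559), female sucrose-seeking replicates 1 and 3 (0.0552 and 0.053) or female overlapping replicate 2 (0.0705), and the Cartpt call was lost in 25 of its 32 alternative settings.

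In the mPFC, 0 of 10 members passed for cocaine-seeking against sucrose-seeking (0.8% of genes called) and 0 of 10 for overlapping against sucrose-seeking (0.696%), by edgeR and by DESeq2, with 3 members at an unadjusted p under 0.05 in each. The fitted log2 changes ran from -0.37 (Ntsr2) to 0.59 (Nts, SE 0.41) in the former and from -0.38 (Ntsr2) to 0.55 (Nts, SE 0.41) in the latter. With the pool block these fits called 6.62% and 6.9% of genes. Scg2 (0.36, adjusted p = 0.00121) and Vgf (0.38, adjusted p = 0.000696) were then higher and Ntsr2 (-0.36, adjusted p = 0.0048) lower in the cocaine-seeking ensemble. In the overlapping ensemble Scg2 (0.35, adjusted p = 0.00182), Vgf (0.51, adjusted p = 2.24e-05) and Nts (0.58, adjusted p = 0.0425) were higher and Ntsr2 lower (-0.37, adjusted p = 0.00353). Between the cocaine-seeking and overlapping ensembles no member passed in either region (edgeR, none at an unadjusted p under 0.05, and 0 by DESeq2), where 0% of genes were called in the NAc and 0% in the mPFC (636 and 499 genes at an unadjusted p under 0.05, 1 and 4 called by DESeq2). The members' fitted log2 differences ran from -0.35 (Cartpt, SE 0.20) to 0.44 (Adcyap1, SE 0.36) in the NAc and from -0.13 (Vgf, SE 0.17) to 0.37 (Tac2, SE 0.37) in the mPFC.

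For 3 members, as for many other genes, the regional difference was larger in females than in males. The sexes' differences (NAc minus mPFC, log2) differed by 0.75 for Scg2 (SE 0.15, edgeR adjusted p = 0.000236), by 0.50 for Vgf (SE 0.18, adjusted p = 0.0276) and by 0.40 for Ntsr2 (SE 0.13, adjusted p = 0.0124). The test called 40.8% of all genes in either direction, and 6889 of 28118 genes in the direction of these 3. Such a difference was therefore not particular to the members. In the non-ensemble population Scg2 averaged 417 CPM in the NAc and 188 CPM in the mPFC of females, and 377 and 254 CPM in males. Vgf averaged 255 and 142 CPM in females and 236 and 211 CPM in males, and Ntsr2 79.1 and 46.0 CPM in females and 81.0 and 63.2 CPM in males. The mPFC levels differed more between the sexes than the NAc levels. All 3 female pools and 1 of 3 male pools, male pool 2, had Slc17a7 at 17.9 to 82.3 CPM in their mPFC libraries, so sex and marker state largely went together. In male pool 2 the lowest NAc to mPFC ratio within a population was 0.82 for Scg2, 0.689 for Vgf and 0.951 for Ntsr2. In females the lowest ratios were 1.66, 1.13 and 1.01. The separate parts of sex and marker state were not tested. DESeq2 called Scg2 alone, and on length-scaled counts the Vgf difference was -0.41.

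Against the non-ensemble population, the naive libraries gave 1 member called in the NAc and 2 in the mPFC, all of them neurotensin receptors and no larger a share than among all genes. In the NAc, Ntsr1 stood at 3.76 to 8.84 CPM (median 5.02) against 5.36 to 17.1 CPM (median 11.2) on the scale of this comparison (log2 -1.10, SE 0.31, edgeR adjusted p = 0.0278), where 15.7% of genes were called. In the mPFC, Ntsr1 stood at 4.9 to 9.6 CPM (median 7.49) against 7.42 to 18.1 CPM (median 11.4; log2 -0.73, SE 0.23, adjusted p = 0.0286). Ntsr2 stood at 66.1 to 118 CPM (median 71.1) against 40.9 to 61.3 CPM (median 53.8), with no overlap (log2 0.54, SE 0.15, adjusted p = 0.0163). In that comparison 30% of genes were called. With the replicate number as a block both mPFC calls were lost (edgeR adjusted p = 0.0564 for Ntsr1 and 0.0553 for Ntsr2). The members not called ran from -0.62 (Tac2, SE 0.38) to 0.78 (Adcyap1, SE 0.41) in the NAc and from -0.33 (Nts, SE 0.39) to 0.72 (Adcyap1, SE 0.79) in the mPFC. The naive libraries were deeper than the others and came from another quantification run, which cannot be told apart from the label. Markers of cortical excitatory neurons summed to 318 to 1640 CPM in the naive and 65.1 to 877 CPM in the non-ensemble libraries of the mPFC, and their part in the mPFC calls was not tested. On length-scaled counts the NAc call of Ntsr1 was lost (-0.95, adjusted p = 0.13) and Ntsr2 was -0.15 in the mPFC. There Tac1 (1.23, adjusted p = 0.0116) and Scg2 (0.69, adjusted p = 0.0177) were higher, and Vgf (-0.56, adjusted p = 0.0451) and Ntsr1 (-0.97, adjusted p = 0.0241) lower, in the naive libraries. The calls also rested on single libraries. Ntsr1 in the NAc was lost without any 1 of male naive replicates 1 and 2, male non-ensemble replicates 1 and 2, female non-ensemble replicate 2 and female naive replicate 3 (adjusted p 0.0547 to 0.0757). In the mPFC Ntsr1 was lost in 8 fits that left out 1 library (adjusted p 0.0519 to 0.145), and Ntsr2 was lost without female non-ensemble replicate 3 (0.63, adjusted p = 0.0513).

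Over the 16 group means without naive, each member above 10 CPM was set beside all other genes by the Pearson correlation of log2 CPM. These points share pools, regional tissue and library preparation, so the values are descriptions. Tac1 ran most like Strip2 (0.985), Pde10a (0.982), a phosphodiesterase of medium spiny neurons, and Slc35d3 (0.981). Nts ran most like Sv2c (0.981), Rgs8 (0.98) and Lingo3 (0.98), and Cartpt like Clmp (0.971), Lingo3 (0.971) and Syt2 (0.968). Tacr1 ran most like the enkephalin precursor Penk (0.963), Gpr101 (0.962) and Scn4b (0.961). Scg2 ran most like Cacng2, Caln1 and Acly (0.982, 0.982 and 0.981), and Vgf like Pcsk1n (0.981), Fjx1 (0.98) and Lrrc4b (0.98). Ntsr2 ran most like Pcdh9, Ptprm and Lrrtm3 (0.95, 0.949 and 0.949). Ntsr1 had the loosest companions, Obi1 (0.887), Mrps14 (0.863) and Gm57857 (0.855). Among the members themselves, Cartpt with Nts (0.966), Tac1 with Nts (0.965) and Tac1 with Tacr1 (0.946) were closest.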

How the data were processed

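RNA of cells sorted as neurons was measured by ribosome-depleted SMART-seq libraries sequenced as 2 × 150 base pairs. Per the labels and the study's methods, the authors trimmed reads with CutAdapt and quantified transcripts with Salmon on GRCm39 (version not given in the sources used here). Deposited values were estimated counts, TPM and effective lengths per transcript. The estimated counts that the authors deposited were summed per gene with GENCODE vM39 and rounded. Of 117209 transcripts, 116085 were matched by identifier, and the 1124 unmatched held 2.234 to 7.1% of the counts of the 48 libraries and 0.932 to 3.116% of the naive. Deposited TPM were summed for levels between genes and for length-scaled counts.

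edgeR 4.0.16 (R 4.3.3) quasi-likelihood tests with TMM factors and filterByExpr were run per region over 24 libraries with sex as covariate. Regional contrasts used 16 group means over 48 libraries, and naive was fitted with non-ensemble only. Calls used a Benjamini-Hochberg adjusted p under 0.05 over all genes tested, not the study's thresholds (adjusted p under 0.01 and a log2 change over 0.75), which were an alternative. DESeq2 1.42.0 served as an alternative, and the code was tested on simulated data. Transcript fits were added after gene values had been seen.

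Replicates are pools of mice. The same number within a sex marks the same pool in every population, by the sorting design. Deviations from group means correlated on average by 0.077 to 0.171 between same-numbered libraries of different populations of a sex and region. The deviations within a group sum to 0, so the mean between other libraries (-0.086 to -0.038) largely follows from these values and adds nothing to them. No 2 libraries of the same group agreed within counting noise, and libraries of different groups were not compared in this way. The members and gene lists were chosen with earlier results of these data known. By the rule for named genes all 10 members stand in every comparison, those without a call in part as a range. Beside them are named up to 4 genes of each other list with the smallest adjusted p past the threshold, the 3 genes most alike to each member of at least 10 CPM, and transcripts with at least 10% of a member's TPM in a region. The marker genes of the library checks were named beside the results their values touch. The depth of the libraries is given with the results, and it limits Tac2 and Adcyap1 most.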

Additional observations from a re-analysis of the deposited data

Results flagged for a closer look

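For 3 members the difference between NAc and mPFC was not the same in the sexes, by a test of the difference between the sexes' log2 differences (edgeR, contrast of contrasts, 48 libraries). The female difference exceeded the male one by 0.752 for Scg2 (adjusted p = 0.000236), by 0.499 for Vgf (adjusted p = 0.0276) and by 0.402 for Ntsr2 (adjusted p = 0.0124). The median over all genes was -0.18. The test called 40.8% of all genes in either direction, and 6889 of 28118 genes in the direction of these 3. Such a difference was therefore not particular to the members. With the pool as a block the adjusted p were 7.23e-06, 0.00119 and 0.00573. Without female pool 2, Scg2 (0.79, adjusted p = 0.000228) and Vgf (0.50, adjusted p = 0.028) were called and Ntsr2 was not (0.23, adjusted p = 0.173), while Cartpt was (0.67, adjusted p = 0.0391). Ntsr2 was also lost without male replicate 1 (0.28, adjusted p = 0.174) or male replicate 2 (0.35, adjusted p = 0.0876). Vgf was lost without female replicate 1 (adjusted p = 0.0856) or 3 (0.076), or male replicate 1 (0.0935) or 2 (log2 0.27, 0.346). The cortical marker Slc17a7 was low in the mPFC libraries of all 3 female pools and of 1 of 3 male pools. This marker state largely went with sex, and its part in these differences was not tested.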

How the results depend on the processing

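The 27 calls of single members were recomputed under alternatives, which gave 615 results of a member in a setting. Of these, 488 kept direction and call, 124 kept direction and lost the call, and 3 reversed. Members of the same comparison share their fits, so these results are not separate re-analyses. The reversals were all on length-scaled counts: Vgf in NAc against mPFC (-0.001), Vgf in the sex difference of the regional difference (-0.411) and Ntsr2 in naive against non-ensemble mPFC (-0.154). The cause was not tested. Counts of members called follow. Length-scaled counts gave 0 for cocaine-seeking against sucrose-seeking and for overlapping against sucrose-seeking in the NAc, 1 for overlapping against non-ensemble in the NAc, 1 for sucrose-seeking against non-ensemble in the mPFC, 0 for naive in the NAc and 4 for naive in the mPFC. For sucrose-seeking against non-ensemble, females alone and males alone gave 3 each in the NAc and 0 each in the mPFC, and for both comparisons with sucrose-seeking in the NAc they gave 0. For NAc against mPFC males alone gave 6 and females alone 8. The study's thresholds gave 2 for sucrose-seeking against non-ensemble in the NAc, 0 in the mPFC, 0 for both comparisons with sucrose-seeking in the NAc, 5 for NAc against mPFC, 0 for naive in each region and 1 for the sex difference of the regional difference. Without the filter on low counts, sucrose-seeking against non-ensemble in the mPFC and naive in the mPFC gave 1 each. DESeq2 gave 4 for cocaine-seeking against sucrose-seeking in the NAc and 1 for the sex difference of the regional difference, where its size factors in edgeR also gave 1. Male pools 1 and 3 alone, chosen after seeing the data, gave 0 for sucrose-seeking against non-ensemble in the mPFC and 5 for NAc against mPFC.

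With the pool as a replicate block, the counts were 1 for cocaine-seeking and 2 for overlapping against non-ensemble in the NAc, 5 for cocaine-seeking against sucrose-seeking in the NAc, 5 for sucrose-seeking and 2 for overlapping against non-ensemble in the mPFC, and 3 for cocaine-seeking and 4 for overlapping against sucrose-seeking in the mPFC. For naive in the mPFC the count was 0, with the replicate number as the block, which is not known to mark the same mice there. The block ended no call but those of naive in the mPFC. Leaving out single libraries or pools gave 4 to 5 for sucrose-seeking against non-ensemble in the NAc and 1 to 3 in the mPFC, 1 to 3 for cocaine-seeking and 0 to 3 for overlapping against sucrose-seeking in the NAc, 8 in every case for NAc against mPFC, 0 to 2 for naive in the NAc and 0 to 4 in the mPFC, and 1 to 3 for the sex difference of the regional difference. Depth limits Tac2 and Adcyap1 most, whose counts per library were as low as 8.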
